A study of Mus musculus with 16 samples.

Results

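The enzymes that write, copy and remove 5-methylcytosine were followed in CD8+ T cells separated by an autophagy reporter. The 7 genes were the DNA methyltransferases Dnmt1, Dnmt3a and Dnmt3b, the maintenance factor Uhrf1 and the TET dioxygenases Tet1, Tet2 and Tet3. They were chosen by symbol, and all 7 were among the 13275 genes listed in the deposited RNA table. For chromatin accessibility, peaks overlapping a gene body extended by 2 kb at each end were taken. After peaks of the libraries were merged, this gave 43 of 73648 regions in cells before transfer and 43 of 72327 regions in cells from tumours.

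All T cells came from Pmel-LC3-GFP-RFP mice, which pair a transgenic T cell receptor against the melanocyte protein gp100 with a fluorescent reporter of LC3, the protein of autophagosome membranes. They were activated over 3 days by αCD3 and αCD28 (each 2 µg/ml) with IL2 at 100 IU/ml, received CO (carbon monoxide) for 24 h and were sorted as LC3-GFPpos or LC3-GFPneg, here positive and negative. RNA-seq was made from 2 positive and 2 negative libraries, and ATAC-seq, which reads where a transposase can reach the DNA, from another 2 and 2. For the tumour libraries, C57BL/6 mice bearing B16-F10 melanoma for 12 days received either population, and 15 days later their tumours gave Vβ13+CD8+ cells by sorting, 1 library per mouse with 4 mice a group. Every group, the negative one included, carried the Pmel receptor, the reporter and the CO exposure. A group without CO was not analysed here. Whether the RNA libraries and the ATAC libraries made before transfer stem from separate animals or cultures is not stated in the labels. Their p-values thus cover the spread among these libraries alone, and that spread may be technical.

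DNMT1 copies methylation onto the new strand behind the replication fork, and UHRF1 recruits it there by binding hemimethylated CpG sites. DNMT3A and DNMT3B methylate unmethylated sites, and the TET enzymes oxidise 5-methylcytosine in a reaction that uses 2-oxoglutarate and iron, which leads to loss of the mark through replication or base excision repair. In CD8+ T cells, Dnmt3a and Tet2 are known as regulators of effector and memory differentiation, and Dnmt1 and Uhrf1 are known as genes transcribed in cycling cells.

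Promoter sequences are shown first because the members fell into groups by sequence. Windows from 250 bases before to 50 after each RefSeq start (GRCm38.p6, the assembly mm10 names) held 12 starts of the 7 genes. The following 30-base stretches are shown because Dnmt1 and Uhrf1 were the members whose windows held letters of the E2F type, the factors that drive S phase genes. Capitals mark a match. Dnmt1 is on the minus strand (chr9:20952824-20952853), where the match shown begins 219 bases before the start at 20952623, and a second, TTTGGCGC, lies 33 bases after that start. Uhrf1 is on the plus strand (chr17:56304117-56304146), where it begins 185 bases before the start at 56304313.
Dnmt1: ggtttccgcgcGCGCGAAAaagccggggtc
Uhrf1: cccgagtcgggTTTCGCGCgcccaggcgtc
The letters searched on both strands were TTTGGCGC, TTTCCCGC, TTTGCCGC, TTTCGCGC, TTTGGCGG and TTTCCCGG. GCGCGAAA is TTTCGCGC read on the other strand, so both genes held the same 8 letters in opposite orientation. Of 32851 windows of this length, 3.98% held a match. No match lay in the windows of Dnmt3a, Dnmt3b, Tet1, Tet2 or Tet3. The letters CCAAT of the NF-Y type, found in 37.4% of windows, were present in windows of Dnmt1, Uhrf1 and Tet3. A match is a description of letters and not of binding.

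The next 2 sequences are shown because Tet2 and Tet3 were the members lower in positive cells, and their CpG content differed. Each is the 100 bases before the start, with every CG in capitals. The Tet2 start is the gene's 5′ end, while the Tet3 start (83441678) lies inside the gene, whose 5′ end is at 83456392. That 5′ end had no window, so the 2 stretches are not like promoters. Tet2 is at chr3:133544391-133544490 and Tet3 at chr6:83441679-83441778, both on the minus strand.
Tet2: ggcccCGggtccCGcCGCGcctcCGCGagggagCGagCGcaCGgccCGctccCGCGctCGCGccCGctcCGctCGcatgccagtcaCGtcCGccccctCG
Tet3: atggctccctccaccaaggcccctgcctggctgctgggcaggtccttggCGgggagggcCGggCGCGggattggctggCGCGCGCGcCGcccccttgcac
These stretches held 20 CpG in Tet2 and 9 in Tet3. Over its whole 300-base window Tet2 held 57 CpG, more than 99.9% of all windows, whose median was 7. Dnmt3a held 46 and 47 at its first pair of starts and 18 at the internal start, and Dnmt1 2, 12 and 33. Uhrf1 held 12 and 33, Dnmt3b 30, Tet3 22 at its internal start and Tet1 17.

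The RNA libraries held 14567540 to 17557628 counts. Reads of the ribosomal RNA gene Rn45s took 1.43% and 1.51% of the total in positive libraries but 3.20% and 3.58% in negative ones. The CD8 label was met in RNA: Cd8a stood at 524 and 534 CPM (normalised read counts scaled to library size) in positive and at 583 and 618 in negative libraries, and 7 of 10 tested CD8 T cell markers were called lower in positive cells (Cd3d, Cd3e, Cd8b1 and Cd8a fell by 0.18 to 0.20 on the log2 scale), or 2 of 10 with unscaled library sizes, 1 of 10 without positive replicate 1 and 2 of 10 without positive replicate 2. B cell markers were low and higher in positive cells. Their summed level was 14.2 to 15.4 CPM in positive and 5.11 to 6.15 CPM in negative libraries, 5 of 6 tested passed the test (3 of 6 without positive replicate 1), and Pax5 and Ighm were not listed. Of 7 myeloid markers 3 were higher and 2 lower, with summed levels of 70.4 to 75.5 and 76.6 to 81.0 CPM, and Lyz2, Csf1r and Adgre1 were not listed. All 3 tested NK markers, Eomes among them, were lower (summed levels 99.8 to 106 and 181 to 188 CPM), and Ncr1 was not listed. Of CD4 T cell markers Cd4 was higher and Zbtb7b lower, at summed levels of 53.9 to 59.1 and 70.6 to 78.5 CPM. The part of other cells and of Rn45s in the results below was not tested, except that leaving Rn45s out of the counts changed no call among the 7 genes. In bulk RNA, fewer cells of a type and less RNA per cell cannot be told apart.

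Of the 7 genes, Uhrf1 was higher and Tet2 and Tet3 were lower in positive cells, and the other 4 did not pass the test. A gene was called where edgeR's quasi-likelihood test gave a Benjamini-Hochberg adjusted p under 0.05 over the 12022 genes tested. The 3 calls among 7 members stand beside 25.0% of all genes, 11.3% called higher and 13.6% called lower. The median log2 fold change was 0.06 over the members and 0.00 over all tested genes, and the 3 called members did not share a direction. The groups did not overlap for 5 of the 7 genes, beside 61.5% of all genes. Levels of different genes were not ranked against each other, since transcript lengths were not used here.

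**Figure D1:**
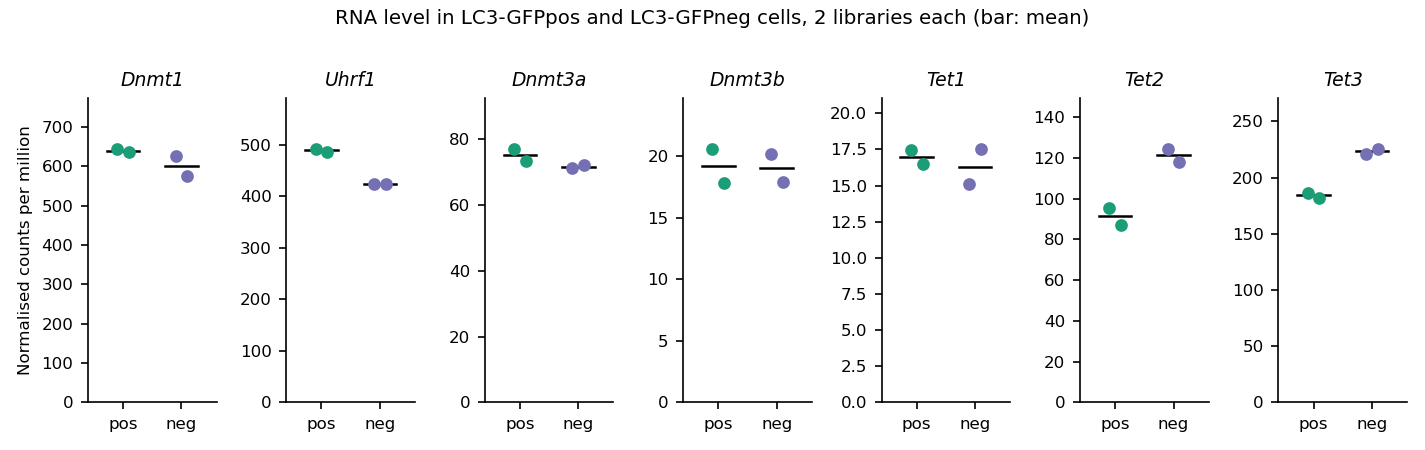
RNA level of the 7 genes in CPM (y axis, from 0 in each panel) in the 2 positive and 2 negative libraries, with points for libraries and a bar for the mean. Uhrf1 is higher in both positive libraries (492 and 486 against 423 and 425), Tet2 and Tet3 are lower in both, and the points of Dnmt3b and Tet1 overlap.

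The maintenance pair was described first. Uhrf1 (chr17:56303337-56323486, plus strand) stood at 492 and 486 CPM in the positive libraries and at 423 and 425 CPM in the negative libraries. Both positive libraries were above both negative ones, with means of 489 ± 4.24 and 424 ± 0.786 CPM (SD, n = 2 each). The level rose 1.15-fold, a log2 fold change of 0.21 ± 0.04 (SE) with an adjusted p of 0.00163 by edgeR. Without positive replicate 1 the log2 fold change was 0.20 and the gene was not called. That fit has 1 positive library, so it cannot tell a weak call from a smaller number of libraries.

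Dnmt1 (chr9:20907206-20959888, minus strand), the partner that UHRF1 recruits, stood at 645 and 636 CPM in positive and at 626 and 576 CPM in negative libraries. The groups did not overlap, but the gap between negative replicate 1 and the positive libraries was small beside the spread of the negative pair. The means were 641 ± 6.48 and 601 ± 35.4 CPM (SD, n = 2 each), and the log2 fold change of 0.09 ± 0.05 (SE) had an adjusted p of 0.169 by edgeR. Dnmt1 passed the test with library sizes left without further scaling (0.15, adjusted p 0.0174) and without negative replicate 1 (0.15, adjusted p 0.000294), and in the other alternatives it did not. Whether Uhrf1 and Dnmt1 differed in their response was not tested.

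Both genes are read beside S phase transcripts. Of 30 genes of DNA replication and the G1/S transition, 23 rose, none fell and the median log2 fold change was 0.22. Calls made up 76.7% of this list, beside 25.0% of all genes. Ccne2, a cyclin of S phase entry, rose by 0.53, the thymidylate synthase gene Tyms by 0.41 and the origin licensing factor Cdc6 by 0.40 on the log2 scale. Without positive replicate 1 the count was 12 and without positive replicate 2 it was 15. Uhrf1 lay in the middle of this list, with 16 genes above it and 14 below. Dnmt1 lay near its lower end, with 27 genes above it and 3 below. The ratio of Uhrf1 to Pcna counts, the clamp of the replication fork, was 0.981 and 0.980 in positive and 1.10 and 1.05 in negative libraries. The ratio of Dnmt1 to Pcna was 1.29 and 1.28 in positive and 1.63 and 1.42 in negative libraries. Both ratios were lower in the positive libraries, and they depend on the reference gene, since Pcna rose by 0.34, above the median of the S phase list.

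Of 16 tested partners of the maintenance and de novo enzymes, 4 rose and 1 fell, with a median of 0.10. Calls made up 31.25% of them, beside 25.0% of all genes, and with unscaled library sizes 8 rose and 1 fell. Cdca7, whose product works with the remodeller HELLS, stood at 144 and 133 CPM in positive and at 105 and 99.3 CPM in negative libraries and rose by 0.44 on the log2 scale. Hells, which encodes that SNF2-type remodeller, needed for methylation of repeats, stood at 172 and 171 against 136 and 134 CPM and rose by 0.35. Pcna (0.34) and the deacetylase gene Hdac1 (0.25) rose as well. Ehmt2, the histone H3 lysine 9 methyltransferase G9a, fell by 0.21, and that call was lost without positive replicate 2 (adjusted p 0.147 by edgeR). Hells and Pcna are also on the S phase list, so the counts of both lists share them. The deubiquitinase gene Usp7, the Uhrf1 paralog Uhrf2 and Trim28 were uncalled, at 0.08, 0.05 and 0.04. Dnmt3l and Dppa3 were not listed.

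The de novo enzymes gave no call. Dnmt3a (chr12:3806980-3914443, plus strand) stood at 77.1 and 73.4 CPM in positive and at 71.1 and 72.2 CPM in negative libraries. The positive libraries were above the negative ones by a small margin, with a log2 fold change of 0.07 ± 0.06 (SE) and an adjusted p of 0.437 by edgeR. Dnmt3b (chr2:153649449-153687730, plus strand) stood at 20.6 and 17.8 CPM in positive and at 20.2 and 17.9 CPM in negative libraries. These values overlapped, replicate 1 was above replicate 2 in both groups, and the log2 fold change was 0.01 ± 0.11 (SE) with an adjusted p of 0.945 by edgeR. The ratio of Dnmt1 counts to those of Dnmt3a and Dnmt3b together was 6.61 and 6.97 in positive and 6.85 and 6.39 in negative libraries, which overlapped.

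The TET genes held the larger differences. Tet2 (chr3:133463677-133544390, minus strand), the TET enzyme best known as a tumour suppressor of blood cells, stood at 95.5 and 87.1 CPM in the positive libraries and at 124 and 118 CPM in the negative libraries. Both positive libraries were below both negative ones, with means of 91.3 ± 5.90 and 121 ± 4.44 CPM (SD, n = 2 each). The level was 1.33-fold lower in positive cells, a log2 fold change of -0.41 ± 0.06 (SE) with an adjusted p of 5.85e-05 by edgeR. In size this exceeded 84.1% of all tested genes.

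Tet3 (chr6:83362374-83456392, minus strand), the TET enzyme also known from the zygote, stood at 187 and 182 CPM in positive and at 221 and 226 CPM in negative libraries. The groups were apart by more than their spread, with means of 184 ± 3.18 and 224 ± 2.999 CPM (SD, n = 2 each). The level was 1.21-fold lower in positive cells, a log2 fold change of -0.28 ± 0.05 (SE) with an adjusted p of 0.000245 by edgeR. Tet2 and Tet3 were called lower under each of the 9 alternatives run, with fold changes from -0.48 to -0.34 for Tet2 and from -0.29 to -0.22 for Tet3.

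Tet1 (chr10:62804570-62887324, minus strand), known from embryonic stem cells, stood at 17.5 and 16.5 CPM in positive and at 15.1 and 17.6 CPM in negative libraries. These values overlapped, and the log2 fold change of 0.06 ± 0.12 (SE) had an adjusted p of 0.749 by edgeR. Whether Tet1 differed from Tet2 and Tet3 in its response was not tested.

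Ratios within a library are free of the scaling between libraries. The counts of Tet2 and Tet3 together over those of Dnmt1 were 0.437 and 0.423 in positive and 0.553 and 0.597 in negative libraries. The counts of Dnmt1 over those of Tet2 were 6.76 and 7.30 in positive and 5.03 and 4.87 in negative libraries. Neither ratio overlapped between groups. With 2 libraries against 2, an exact two-sided permutation test of such a value cannot give a p below 0.333.

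Factors that work with TET enzymes or repair their products moved both ways. Of 18 tested, 3 rose and 2 fell, 27.8% beside 25.0% of all genes, and the median was -0.01. Without positive replicate 1, 1 rose and 3 fell, without positive replicate 2, 1 rose and 2 fell, and without negative replicate 1, 3 rose and 4 fell. Neil2, a glycosylase for oxidised bases, stood at 1.67 and 2.13 CPM in positive and at 4.92 and 4.75 CPM in negative libraries and fell by 1.35 on the log2 scale. The stress gene Gadd45g fell by 0.39. The apurinic endonuclease gene Apex1, which cuts after a glycosylase has removed a base, rose by 0.34. The uracil glycosylase gene Ung rose by 0.22, a call that DESeq2 did not make (adjusted p 0.197). Tdg, the glycosylase that removes the last TET oxidation products, was uncalled at -0.23, and Ogt, which binds TET proteins, at -0.04. Cxxc4 was not listed.

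Genes of proteins that bind methylated DNA, or share the methyl-CpG-binding domain (MBD) fold, also split. A place on this list does not mean that the protein binds methylated CpG. Of 11 tested, 2 rose and 2 fell, 36.4% beside 25.0% of all genes, with a median of 0.05. Without positive replicate 2, 1 rose and 1 fell, without positive replicate 1 and with unscaled library sizes 2 rose and 1 fell, and without negative replicate 1, 1 rose and 2 fell. Zbtb33, which encodes the zinc finger reader Kaiso, rose by 0.38 (56.0 and 55.3 against 40.8 and 45.0 CPM). Mbd5 rose by 0.35, Zbtb4 fell by 0.30 and Mbd6 fell by 0.27. The calls of Mbd5 and Zbtb4 were absent in DESeq2 (adjusted p 0.193 and 0.161), and that of Mbd6 was lost without positive replicate 2 (adjusted p 0.103 by edgeR). Mbd1, Mbd2, Mbd3 and Mbd4 were uncalled.

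DNMT enzymes use S-adenosylmethionine (SAM) and TET enzymes 2-oxoglutarate. Of 28 genes of their supply, 6 rose and 5 fell, 39.3% beside 25.0% of all genes, with a median of 0.02. With unscaled library sizes 9 rose and 3 fell, and with the replicate block 8 rose and 5 fell, so the balance depended on the scaling. Without positive replicate 1, 3 rose and 3 fell. Mat2a, the catalytic subunit of the SAM synthetase of most tissues, stood at 343 and 342 CPM in positive and at 209 and 242 CPM in negative libraries. It rose by 0.60 on the log2 scale (adjusted p 3.74e-07 by edgeR), and both positive libraries were far above the negative pair. Slc7a5, part of a carrier that imports large amino acids including methionine, fell by 0.41. Of the folate enzymes, the mitochondrial Mthfd2 fell by 0.32 and the cytosolic Mthfd1 rose by 0.30. Idh1, Idh2 and Ahcy, the hydrolase that clears the product of methylation, were uncalled at -0.05, 0.20 and -0.09.

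**Figure D2:**
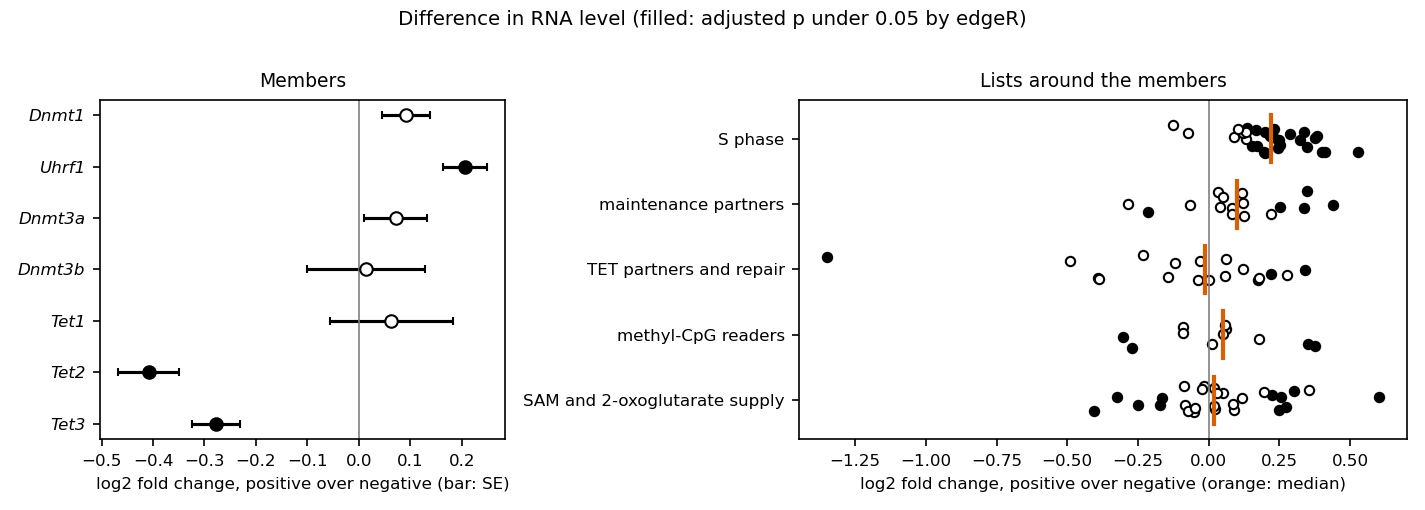
Log2 fold change of positive over negative cells (x axis) for the 7 genes with SE bars (left) and for tested genes of 5 lists with their medians in orange (right), filled where the adjusted p was under 0.05. Uhrf1 (0.21) lies near the S phase median (0.22), Tet2 (-0.41) and Tet3 (-0.28) lie left of 0, and the other lists are spread on both sides of 0.

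Among 19 tested T cell genes whose loci are studied in cells without Dnmt3a or Tet2, 5 rose and 5 fell, and the median was -0.09. Calls made up 52.6% of these, beside 25.0% of all genes. Without negative replicate 1, 8 fell, and without positive replicate 2, 3 fell. Cd4 rose by 2.21 from a level under 1 CPM in both negative libraries. Eomes, a transcription factor of effector and memory cells, fell by 1.45 (34.5 and 34.3 against 98.5 and 89.3 CPM), and the perforin gene Prf1 fell by 1.09 (182 and 185 against 396 and 386 CPM). Id3, a factor of memory precursors, rose by 0.64. A list of 22 genes, most of them germline genes, was chosen for silencing by promoter methylation in other tissues. Of these, 17 were not listed in the table, in which the smallest total over the 4 libraries was 10. The 2 that could be tested, Brdt and Xlr4a, were uncalled at 0.03 and -0.01. Summed over the 5 listed, the level was 22.5 and 24.3 CPM in positive and 23.2 and 22.7 CPM in negative libraries, which overlapped.

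The genes whose profile over the 4 libraries was closest to a member's, by the root mean square difference of centred log2 CPM, were named for the 3 called members. They were Hnrnpm, Mtdh and Actl6a for Uhrf1 (differences of 0.0065 to 0.0076), Sos2, E330009J07Rik and Agbl5 for Tet2 (0.011 to 0.021), and Il2rb, Arhgap17 and Sesn1 for Tet3 (0.0061 to 0.0089). Over 4 libraries many genes can share a profile, and 6007 were compared.

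In the ATAC data, read depth is unknown from the peak lists, and the number of peaks called in each library stands in for it. Before transfer, the positive libraries held 63761 and 53869 peaks and the negative ones 56476 and 49634. In tumours, the positive libraries held 27406 to 37477 and the negative ones 33704 to 55171, with the lowest number in positive replicate 1 and the highest in negative replicate 2. Where a gene's difference in covered bases between tumour groups moved by over 1.5 times without either, the value without it is given. All 11 CD8 T cell marker loci had a peak in every library before transfer and 10 of 11 in every tumour library. Before transfer this was also true of all 9 B cell and all 4 CD4 T cell loci. It was true of 8 of 10 myeloid and 3 of 4 NK loci as well, so peak presence did not set CD8 loci apart. In tumours 4 of 9 B cell, 2 of 4 CD4 T cell, 5 of 10 myeloid and 2 of 4 NK loci did. Of the 5 melanoma markers, 2 (Pmel and Mlana) had a peak in every library of both settings. Tyr and Tyrp1, which define melanocytes, had none in any library, and Dct had a peak in tumour negative replicate 2. That library also stood apart at myeloid and B cell loci: it was the one tumour library with peaks at Lyz2 (1453 bases) and Adgre1 (2121), it had 4199 bases at Csf1r beside 0 to 421 in the other tumour libraries, and 2692 at Ms4a1 beside 0 to 469. Of tumour libraries it had the fewest bases at Cd3d (2404), Cd3e (2365), Cd3g (808), Cd247 (8788), Cd8b1 (1963), Cd2 (3081) and Cd5 (1668). At Cd8a, Lck, Trac and Thy1 another tumour library had fewer. The part of all these loci in the results of that library was not tested. At the B cell locus Ebf1, peaks covered 38651 and 28995 bases in positive and 19460 and 17688 in negative libraries before transfer. Its part in the results was not tested.

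Each of the 7 genes had an open start in every library. For Tet3 this was the internal start, in a region that also covers the start of B230319C09Rik. A further region, over the Tet3 5′ end, was found in all libraries as well. A peak lay over 11 of the 12 starts in all 4 libraries before transfer and all 8 from tumours. The exception was the most upstream Dnmt1 start at 20959888, which had a peak in 0 of 12 libraries. The Dnmt1 peak covered the starts at 20952979 and 20952623, the second being the one with the E2F letters shown above, and its fold enrichment was 5.59 to 7.48 before transfer and 5.35 to 9.39 in tumours. These fold values are the authors' and describe a peak within its own library. The Tet2 peak had its summit 92 to 139 bases before the start in cells before transfer and 92 to 224 in tumours, which for the shorter distances lies in the CpG-rich stretch shown above. It ranked above 93.4% to 96.6% of the peaks of its library before transfer. The Uhrf1 peak covered both starts, 1642 to 2040 bases long before transfer, and ranked above 83.7% to 93.6% of peaks.

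The number of regions, those over starts included, differed between genes. Before transfer Dnmt3a had 11 regions, Tet3 10, Tet1 8, Dnmt1 6, Tet2 5, Uhrf1 2 and Dnmt3b 1. In tumours the numbers were 14, 10, 7, 5, 4, 2 and 1 in that order. Of the 43 regions before transfer 27 (62.8%) were found in all 4 libraries, beside 53.8% of all regions and 58.3% of regions in any listed gene's window. Of the 43 in tumours 20 (46.5%) were found in all 8, beside 29.0% and 38.3%. The peak tables of the 2 settings were made separately, so they are set side by side without a test. Of the regions before transfer 32 (74.4%) were overlapped by one from tumours, and of those from tumours 32 (74.4%) by one from before transfer.

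**Figure D3:**
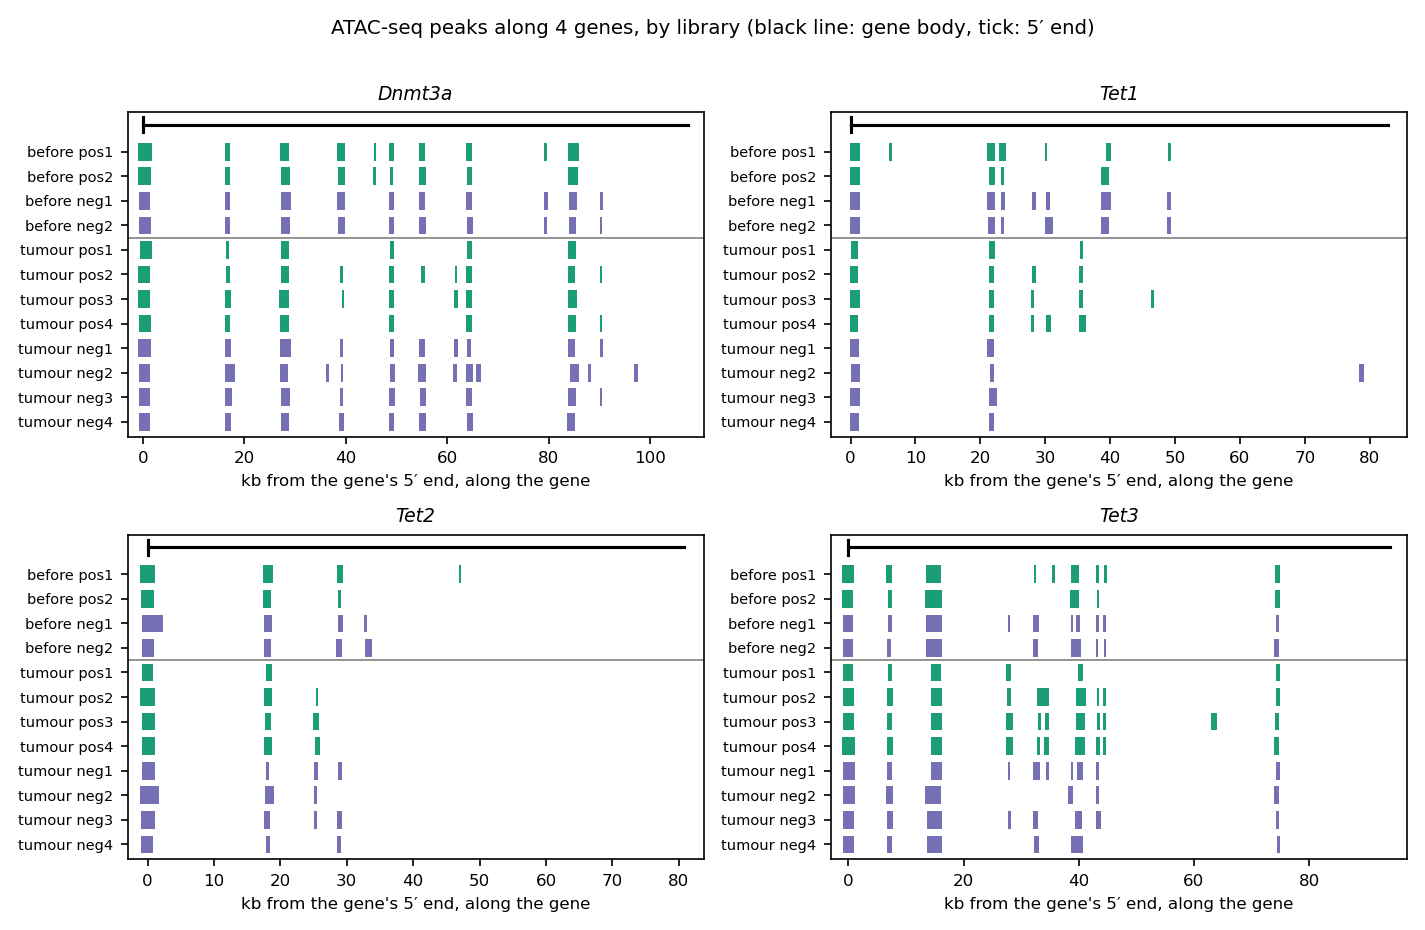
Peaks along Dnmt3a, Tet1, Tet2 and Tet3 (x axis, kb from the gene's 5′ end in the direction of the gene) in 4 libraries before transfer and 8 from tumours (rows), green for positive and purple for negative. The peak at the 5′ end is in every row, and a Tet1 peak 35.7 kb inside the gene is in the 4 positive tumour rows and in no other row.

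Before transfer, 2 of the 43 regions were found in both positive and no negative library, beside 8.03% of all regions, and 2 in both negative and no positive library, beside 3.32%. The positive ones lay in the Dnmt1 body (chr9:20940003-20940763, 19.5 kb from the 5′ end) and in the Dnmt3a body (chr12:3852415-3852979, 45.7 kb). The negative ones lay in Dnmt3a (chr12:3897046-3897568, 90.3 kb) and in Tet2 (chr3:133510649-133511748, 33.2 kb). All 4 were weak peaks, with fold enrichments of 2.03 to 3.60. When the same number of peaks was taken from each library, the Dnmt3a region at 90.3 kb was still found in the negative libraries alone, beside 5.99% of all regions under that setting, and the other 3 were not separate. An exon annotation was not used here, so these regions are placed in the gene body only.

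Bases under peaks before transfer did not separate the groups for 6 of the 7 genes, while the groups were apart for 40.0% of all genes and apart with the positive one higher for 31.6%. Dnmt3b, with its single start region, had 1551 and 1559 bases in positive and 1407 and 1408 in negative libraries. The groups were apart by more than their spread, though 2 libraries against 2 allow no exact two-sided permutation p below 0.333, which is the value it had (adjusted over all genes 0.833). Uhrf1 had 2694 and 2052 bases in positive and 2116 and 1982 in negative libraries, which overlapped. Tet2 had 4912 and 3723 in positive and 5662 and 4515 in negative libraries, which overlapped although its RNA was lower in positive cells. Tet3 had 9996 and 8424 against 9922 and 9757, again with overlap. Tet1 had 6007 and 4128 against 6696 and 5876, which overlapped. With equal numbers of peaks Tet1 was apart and lower in positive cells (4712 and 4128 against 6070 and 5876). So were Tet3 (8014 and 8034 against 8878 and 9757) and the sum over the 7 genes (36889 and 34920 against 39983 and 39508). Dnmt3b kept its values and was apart and higher. Under that setting groups were apart for 44.3% of all genes, with the positive one lower for 13.5% and higher for 30.9%. The exact permutation p was 0.333 for Tet1, Tet3, Dnmt3b and the sum.

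In tumours 1 of the 43 regions was found in all 4 positive and no negative library, beside 0.691% of all regions, and 0 in all 4 negative and no positive library, beside 1.04%. The region lay in Tet1 (chr10:62851085-62852157), 35.7 kb from the 5′ end within the gene body. Its fold enrichments in positive replicates 1 to 4 were 4.63, 6.97, 5.71 and 6.87, and its peaks covered 554, 627, 549 and 1072 bases. Positive replicate 1, the library with the fewest peaks, held it as well. It stayed with the positive group when equal numbers of peaks were taken, beside 1.70% of all regions under that setting, and when each library was left out in turn. It was not separate when peaks with a −log10 q under 5 were removed. Before transfer, no library had a peak there.

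A second Tet1 region (chr10:62858798-62859519, 28.2 kb) was found in 3 of 4 positive and no negative tumour library, and a Tet3 region (chr6:83411577-83412182, 44.5 kb) in 3 of 4 positive and no negative. The positive library without them was replicate 1 in both cases. These regions were picked after their values were seen. Before transfer the Tet1 region had a peak in 1 negative library and the Tet3 one in 3 of 4 libraries, so neither was kept to positive cells there. In Tet2, a region 28.9 kb from the 5′ end (chr3:133515122-133515838) was found in 3 of 4 negative and no positive tumour library, with fold enrichments of 4.40 to 5.24. The same place was open in all 4 libraries before transfer.

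Dnmt3a had the one difference in covered bases that separated the tumour groups. In positive tumour libraries it had 7919, 10911, 10288 and 9493 bases under peaks, and in negative ones 12234, 15620, 11748 and 10984. Every positive library was below every negative one, positive replicate 2 and negative replicate 4 lay close together, and negative replicate 2, the library with peaks at the myeloid loci Lyz2 and Adgre1, was the highest. Groups were apart for 4.30% of all genes and apart with the positive one lower for 3.43%. The means were 9653 ± 1293 and 12647 ± 2048 bases (SD, n = 4 each). The exact two-sided permutation p was 0.0286, the smallest this design allows, and 0.664 after adjustment over all genes, so the gene did not pass. A gene could pass only if most of all genes reached that smallest p. Not passing thus does not show that the groups were alike. With equal numbers of peaks the groups overlapped (exact permutation p 0.0857), while 2.32% of all genes were apart and lower under that setting, and without negative replicate 2 the difference was -2003 in place of -2994 bases. The region whose number of libraries with a peak differed most between the groups, picked after its values were seen, lay 54.9 kb from the 5′ end (chr12:3861108-3862689), over the start of the antisense gene Dnmt3aos. It had peaks in 4 of 4 negative and 1 of 4 positive libraries. In the negative libraries it covered 1178, 1581, 1067 and 1247 bases with fold enrichments of 5.82 to 9.89, and in positive replicate 2 it covered 823 bases. It held only part of the difference: regions at 36.4, 66.1, 87.9 and 97.2 kb had peaks in negative replicate 2 alone of the tumour libraries, with 750, 935, 609 and 673 bases. With equal numbers of peaks it was found in the 4 negative libraries alone, beside 0.682% of all regions. Before transfer it was open in all 4 libraries. ATAC-seq does not tell strands apart, so the region cannot be given to Dnmt3a or to Dnmt3aos.

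Tet1 went the other way in tumours, with 2630, 3382, 3880 and 4425 bases in positive and 2436, 3021, 2810 and 2206 in negative libraries. The groups overlapped through positive replicate 1, the library with the fewest peaks, with an exact two-sided permutation p of 0.0857 and 0.879 after adjustment over all genes. The difference was 961 bases, 592.5 with equal numbers of peaks (exact permutation p 0.0857) and 482.5 with peaks of −log10 q of at least 5 (0.371). Without positive replicate 1 the groups were apart (exact permutation p 0.0286, adjusted 0.655). Tet3 had 6774, 11019, 11868 and 11580 bases in positive and 9527, 8372, 9590 and 8774 in negative libraries. Its 3 other positive libraries were above all negative ones, but the groups overlapped through positive replicate 1 (exact permutation p 0.371). Without it the difference was 2423 in place of 1245 bases (exact permutation p 0.0286, adjusted 0.655). With equal numbers of peaks positive replicate 3 (7578) also fell below a negative library (replicate 4, 7905).

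Tet2 had 2574, 3814, 3836 and 3803 bases in positive and 3588, 4656, 4071 and 2979 in negative tumour libraries, which overlapped (exact permutation p 0.486). Its difference of -317 bases was -5.83 without positive replicate 1 and -39.2 without negative replicate 2. Dnmt1 had 1914, 2113, 2096 and 2855 against 2352, 4696, 2859 and 2097, where the highest value was again negative replicate 2 (exact permutation p 0.229). Its difference was -756.5 bases and -191.5 without that library. Uhrf1 ran from 1679 to 2126 bases in positive and from 1831 to 2361 in negative libraries. Its difference of -114.75 bases was -17.0 without positive replicate 1 and -23.4 without negative replicate 2. Dnmt3b ran from 1266 to 2156 and from 1319 to 1432, and its difference of 204 bases was 312 without positive replicate 1 and 15.4 without positive replicate 4. No gene of 12900 passed the test after adjustment in tumours, and the groups were apart for 555. With 4 libraries against 4, passing would have needed most genes at the smallest p, so this outcome was set by the design.

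**Figure D4:**
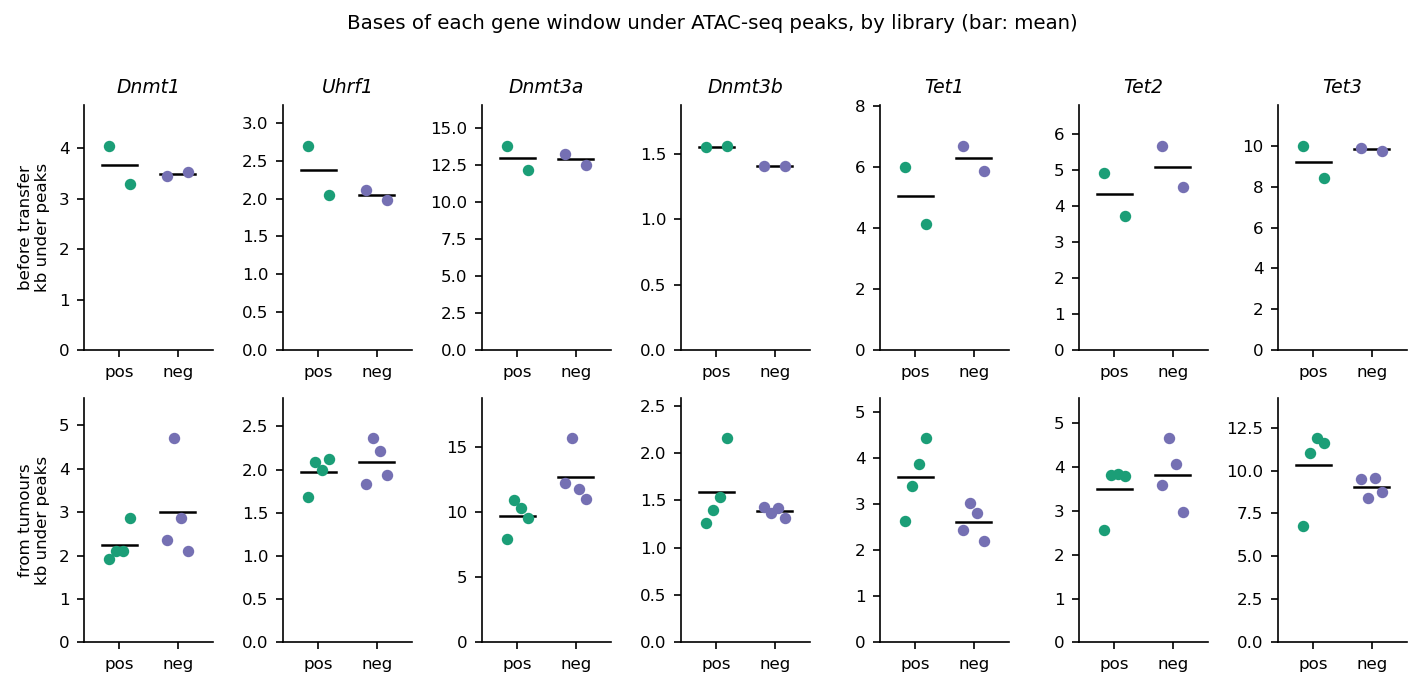
Bases under ATAC-seq peaks in the window of each gene, in kb (y axis, from 0 in each panel), before transfer (top, 2 libraries a group) and in tumours (bottom, 4 a group), with points for libraries and a bar for the mean. In tumours Dnmt3a lies lower in all 4 positive libraries (7919 to 10911 bases against 10984 to 15620), and the other genes overlap between groups.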

How the data were processed

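In the gene table the authors deposited, values are estimated counts, of which 22.5% to 23.8% in a library were not whole. Per the submitters' processing notes it was made with Partek, STAR and DESeq2 on mm10. For the peak tables the notes name Partek, cutadapt, BWA and MACS2. Versions, strandedness and any Tn5 shift are not given in the sources used here, and reads of overlapping or antisense genes may be shared. Per the file headers, each deposited peak carries the library it was called in, its pileup signal, its fold enrichment (a ratio) and the −log10 of its p-value and q-value.

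Counts were rounded, filtered with filterByExpr, scaled by TMM and tested with edgeR 4.0.16 (R 4.3.3), with DESeq2 1.42.0 as an alternative. CPM are on TMM-scaled library sizes. The self-made steps were tested on simulated data. Within an experiment, peaks sharing 1 bp or more were merged, and bases under peaks per gene window were compared by exact two-sided permutation tests with Benjamini-Hochberg adjustment over all genes. Equal numbers of peaks were obtained by taking each library's peaks with the highest −log10 q, down to the smallest library. Deviations of same-numbered RNA libraries from their group means correlated at 0.10 over 6010 genes. With 2 libraries a group, both replicate numbers give the same value by construction, so this is 1 value and cannot decide on pairing. The numbers were not taken as pairing. Samples were grouped by the labelled cell population. Alternatives were other scaling and filters, a replicate block and leaving out each library.

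The members and gene lists were chosen with earlier results of these data known. All members were named, and from each list up to 4 called genes with the largest change and up to 2 called in the minority direction. Other uncalled genes named were chosen for their known role after their values were seen. Gene positions are from the deposited table, with ends made inclusive, and starts and sequences from RefSeq, in which all 7 genes matched. Total counts limit RNA precision, and ATAC depth is unknown. Ranks of peaks are by −log10 q within a library. Some genes that this rule selects are not reported here.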

Additional observations from a re-analysis of the deposited data

Results flagged for a closer look

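In 3 of the 16 sets of 4 tumour values looked at, 1 library lay far from its group by Dixon's test. Chance does this in about 1 in 20 groups. The sets share libraries, and the sum over the 7 genes holds the Tet2 and Tet3 values, so 3 of 16 cannot be set against that rate. All 3 were low values of positive replicate 1, the tumour library with the fewest peaks (27406): Tet2 with 2574 bases under peaks beside up to 3836 in its group, Tet3 with 6774 beside up to 11868, and the 7 genes summed with 24756 beside up to 36438. With equal numbers of peaks, Tet2 of that library (2574) lay above positive replicate 2 (2126) and Tet3 (6774) lay near positive replicate 3 (7578).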

How the results depend on the processing

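Tet2 and Tet3 stayed called lower in every RNA alternative run. Members called higher numbered 2 with unscaled library sizes and 0 to 2 when 1 library was left out. Genes called higher and lower were 1362 and 1638, against 705 and 983 by DESeq2, 2242 higher with unscaled library sizes, and 683 to 1615 higher and 1039 to 1836 lower with 1 library left out. Of all calls 45.4% were higher, and 65.1% with unscaled library sizes, which moved the median of all genes by 0.06. Uncalled fold changes turned sign with 1 library left out, for Dnmt3b without positive replicate 1 or negative replicate 2 (-0.10 to 0.11) and for Tet1 without negative replicate 1 (-0.044 to 0.17). The replicate numbers share no stated source. With the replicate block, 1667 genes were called higher and 1901 lower, members stayed at 1 and 2, and Uhrf1 was at 0.21 (adjusted p 3.56e-05 by edgeR).

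Before transfer, equal numbers of peaks gave 0 positive-only and 5 negative-only member regions and 3824 negative-only regions in all (2448 without). A −log10 q of at least 5 gave 1 positive-only member region. With 1 library left out there were 2 to 5 and 2 to 7 member regions, and 7068 to 13304 and 3144 to 6530 in all. Covered bases, positive minus negative, turned sign with equal numbers of peaks for Dnmt1 (-220) and Dnmt3a (-522), with the stricter q for Dnmt1 (-409) and Dnmt3a (-56), and with 1 library left out for Dnmt1 (-196 to 559), Dnmt3a (-705.5 to 909.5) and Tet3 (-1415.5 to 156.5). In tumours, equal numbers of peaks gave 2 positive-only and 1 negative-only member regions, and 770 and 308 in all (500 and 750 without). The stricter q gave 0 positive-only member regions. With 1 library left out there were 1 to 3 and 0 to 1 member regions, and 541 to 1208 and 763 to 1319 in all. Uhrf1 turned sign without the 2 kb extension (99.25). For all these reversals the cause was not tested.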
